A study of Mus musculus with 7 samples.

Results

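The genes described here encode the adaptors and kinases through which receptors of lymphocytes, and some receptors of myeloid cells, pass on their signal. They are Tyrobp, Hcst, Cd247, Sh2d1a, Sh2d1b1, Sh2d2a, Zap70, Syk, Lck and Ptprcap, taken by symbol from a table of 16476 genes. All 10 were in the table and all 10 were abundant enough to test. RNA came from cells washed out of the lungs of C57BL/6 mice (bronchoalveolar lavage) 3 days after lipopolysaccharide, an outer membrane lipid of Gram-negative bacteria, was instilled into the trachea. Neutrophils were removed from the washed-out cells with antibodies. The 4 control libraries came from mice of genotype LysM Cre, whose Cre recombinase is driven by lysozyme M (Lyz2). The 3 knockout libraries came from mice of genotype Netrin1loxp/loxp LysM Cre, which add floxed Ntn1 alleles to that Cre. Ntn1 encodes the guidance protein netrin-1. By the labels, Cre and lipopolysaccharide were thus common to both groups. The lysozyme M promoter is active in macrophages, monocytes and neutrophils and is largely silent in lymphocytes. Age and sex are not in the labels, which also do not say whether each library was 1 mouse, so the p-values rest on the spread among libraries, which may be technical.

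Many activating receptors have no signalling tail of their own. They pair with small membrane adaptors whose tails carry an ITAM, a motif with paired tyrosines, or in the case of Hcst a motif that binds phosphatidylinositol kinase. A kinase of the Src family such as Lck phosphorylates the ITAM, and Syk or Zap70 then docks on it. Adaptors of the SAP family do the corresponding work for the SLAM receptors. Natural killer cells, which are abundant among lung lymphocytes, use most of these proteins, T cells use Cd247, Zap70, Lck and Sh2d1a, and macrophages and neutrophils use Tyrobp and Syk.

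The recovered reads numbered between 9903284 and 13353733 per library, and the lowest count of any of the 10 genes in any library was 74 reads (Sh2d1a in control replicate 1). Ntn1 itself was hardly detected, with 1, 4, 9 and 3 reads in the controls and 1, 0 and 1 in the knockouts (2-sided exact permutation p = 0.0571, where 0.0286 is the smallest p that 35 splits allow). Ptprc, the pan-leukocyte marker CD45, stood between 19487 and 25797 normalized counts in the 7 libraries. Control replicates 1 and 4 stood apart from all other libraries in Lyz2, at 76927 and 118781 normalized counts against 721 to 1052, and knockout replicate 1 held more neutrophil and erythroid transcripts than any other library. Lyz2 is the locus that carries this Cre, and the labels do not say whether 1 or both copies of it carry Cre in a library. Whether the Lyz2 levels reflect the Cre genotype was not tested.

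In knockouts, 7 of the 10 genes rose and none of the 10 fell. Those that rose were the SAP family adaptor Sh2d1a, the adaptors Sh2d2a and Hcst and the kinases Zap70 and Lck. The receptor chain Cd247 and the CD45 partner Ptprcap rose as well. The log2 fold changes of the 7 lay between 0.59 and 1.73, on the scale log2(normalized count + 1). Tyrobp, Sh2d1b1 and Syk did not pass the test. The test was limma across 12963 genes, with a Benjamini-Hochberg adjusted p under 0.05 as the threshold. Over all genes tested, 10.4% were called higher and 11.3% lower, or 21.7% in either direction. The median log2 fold change was 0.73 over the 10 genes and 0.01 over all genes tested. The knockout and control libraries did not overlap for the same 7 genes, where 17.4% of all genes tested lay higher and 16.3% lower without overlap. With 0 of the 10 called lower by limma, 1 of them (Syk) was lower at an unadjusted p under 0.05. edgeR, DESeq2 and limma-voom on the recovered reads also gave 0 adjusted and 1 unadjusted. In the authors' deposited table an adjusted p under 0.05 was given to the same number, 7 of the 10, where 8.92% of all genes with an adjusted p were higher and 9.92% lower. Its log2 fold changes ran from -0.26 for Syk to 1.52 for Sh2d1a. In bulk RNA of this kind, fewer cells of a type and less RNA per cell cannot be told apart.

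**Figure D1:**
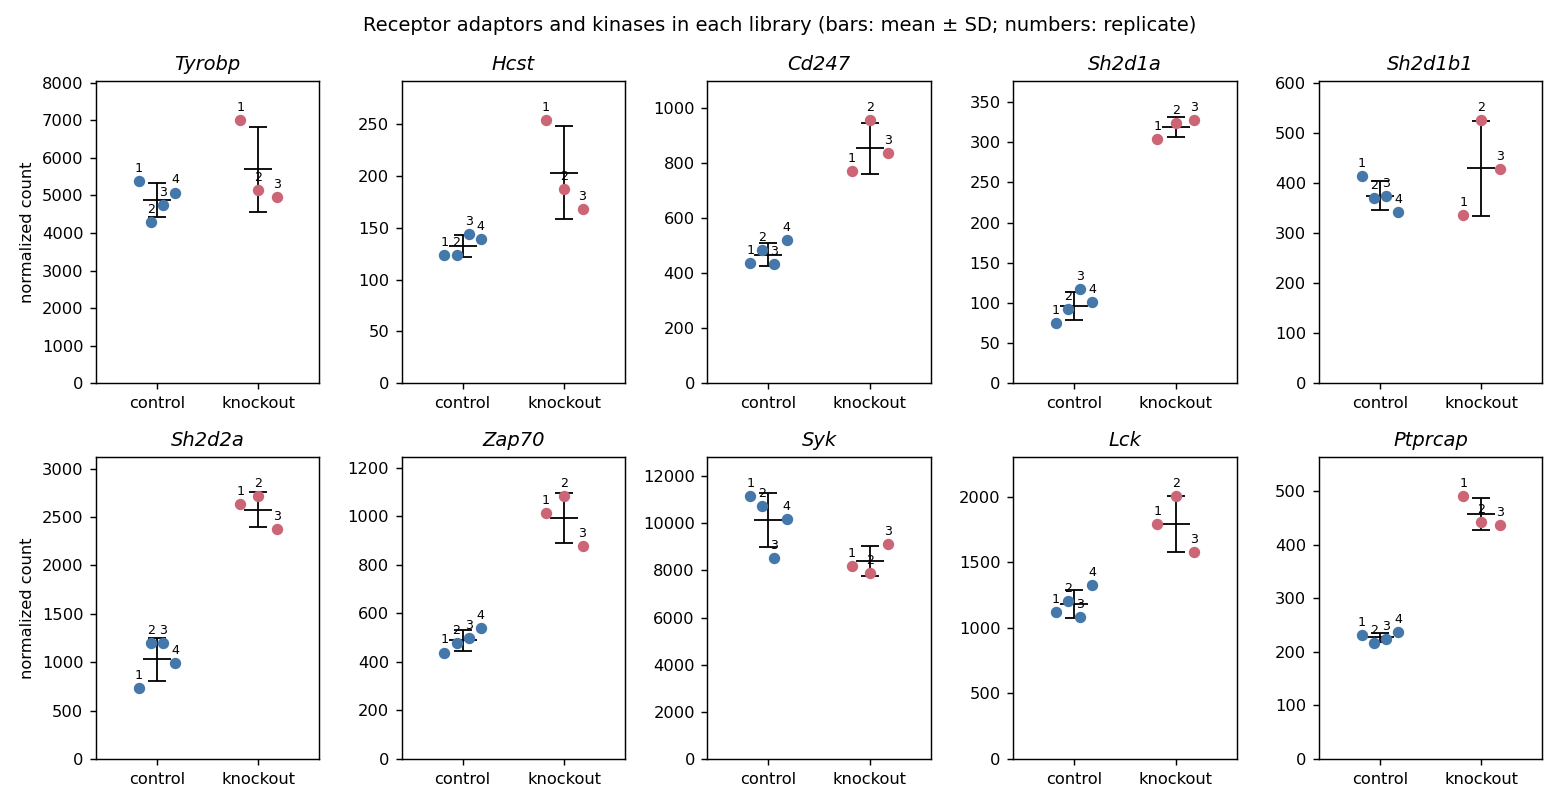
Normalized count (vertical axis, from 0) of each of the 10 genes in the 4 control and 3 knockout libraries, 1 point per library with its replicate number, bars giving mean ± SD. For 7 genes every knockout lay above every control, and for Tyrobp, Sh2d1b1 and Syk the groups overlapped.

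Tyrobp encodes DAP12, the ITAM adaptor of activating natural killer receptors and of TREM receptors on myeloid cells (ENSMUSG00000030579, GRCm38 chromosome 7, 30413760 to 30417585, plus strand). The controls, here and below in the order of their replicate numbers, held 5382, 4303, 4751 and 5077 normalized counts and the knockouts 6996, 5140.1 and 4948. Only knockout replicate 1 lay above all controls, and the other knockouts lay within the control range. The log2 fold change was 0.21 (SE 0.13, 95% interval -0.09 to 0.51, limma adjusted p = 0.279), and without knockout replicate 1 it was 0.05.

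Hcst encodes DAP10, the adaptor of the NKG2D receptor (ENSMUSG00000064109, GRCm38 chromosome 7, 30417712 to 30419854, minus strand). It lies tail to tail with Tyrobp, with 126 bases between the genes and no shared exon. The controls held 124, 123, 144 and 139 normalized counts and the knockouts 253, 187 and 168. All knockouts were higher than all controls, and knockout replicate 1 was the highest of them, as for Tyrobp. Hcst rose 1.53-fold in mean (log2 fold change 0.59, SE 0.15, limma adjusted p = 0.0240). This call was lost when control replicate 1, 2 or 4 was left out (limma adjusted p = 0.0519, 0.0651 and 0.0501), and likewise for knockout replicate 2 (0.0554). The log2 fold change was between 0.42 and 0.72 over the 7 libraries left out in turn.

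Knockout replicate 1, highest for both adaptors, was also the library with most neutrophil transcripts. Of 9 neutrophil markers 5 were called higher, beside 10.4% of all genes tested. The summed level of the 9 reached 68200 normalized counts there, of which S100a9 gave 21247 and S100a8, itself not called, 21214. The other knockouts stood at 22847 and 24049, and the controls between 15436 and 17993. No marker of the list was at 0. Without knockout replicate 1 the log2 fold change of Hcst was 0.42, and it was still called. The part of neutrophil transcripts in the level of either adaptor was not tested.

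Cd247 encodes the zeta chain, the ITAM chain of the T cell receptor that also serves NKp46 and the Fc receptor of natural killer cells (ENSMUSG00000005763, GRCm38 chromosome 1, 165788681 to 165877277, plus strand). The controls held 436, 483, 432 and 519 normalized counts and the knockouts 772, 955 and 835. Every knockout was above every control, with knockout replicate 2 highest. The mean went from 467.5 ± 41.6 (SD, n = 4) to 853.7 ± 93.0 (SD, n = 3), a log2 fold change of 0.87 (SE 0.10, limma adjusted p = 0.00114). Exons of Cd247 overlap those of Pou2f1 on the opposite strand, and whether the counting used strand is not given in these sources. Pou2f1 had a log2 fold change of -0.32 (SE 0.11, limma adjusted p = 0.0678), the other way from Cd247.

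RefSeq start sites on GRCm38.p6 were matched for 6 of the 10 genes, in 10 windows of the 250 bases before a start. Tyrobp, Sh2d1a, Sh2d2a and Ptprcap had no entry. Shown 5′ to 3′ are the windows of Hcst (chr7:30419855-30420104, minus strand), of Cd247 (chr1:165788431-165788680, plus strand) and of the upstream of 2 Lck starts (chr4:129573642-129573891, minus strand), since these genes rose and hold an ETS motif, and that of Sh2d1b1 (chr1:170277068-170277317, plus strand), which did not pass the test. Capitals mark the motifs searched for on both strands, ETS (AGGAAGT), RUNX (TGTGGTT) and T-box (GGTGTGA), which were chosen after some of these sequences had been seen.
Hcst: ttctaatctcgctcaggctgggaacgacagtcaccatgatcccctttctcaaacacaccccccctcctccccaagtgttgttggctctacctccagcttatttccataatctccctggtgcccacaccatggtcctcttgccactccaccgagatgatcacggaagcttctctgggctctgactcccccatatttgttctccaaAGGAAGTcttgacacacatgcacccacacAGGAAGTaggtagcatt
Cd247: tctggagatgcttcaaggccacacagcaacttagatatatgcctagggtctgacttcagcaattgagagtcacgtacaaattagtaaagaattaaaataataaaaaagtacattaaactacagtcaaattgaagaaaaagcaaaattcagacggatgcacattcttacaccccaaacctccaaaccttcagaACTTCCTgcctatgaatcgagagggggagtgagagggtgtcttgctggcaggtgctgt
Lck: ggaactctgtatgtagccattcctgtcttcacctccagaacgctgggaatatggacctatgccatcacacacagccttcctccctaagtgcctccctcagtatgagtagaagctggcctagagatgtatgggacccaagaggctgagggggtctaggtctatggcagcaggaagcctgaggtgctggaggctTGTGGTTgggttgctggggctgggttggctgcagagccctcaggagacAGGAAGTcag
Sh2d1b1: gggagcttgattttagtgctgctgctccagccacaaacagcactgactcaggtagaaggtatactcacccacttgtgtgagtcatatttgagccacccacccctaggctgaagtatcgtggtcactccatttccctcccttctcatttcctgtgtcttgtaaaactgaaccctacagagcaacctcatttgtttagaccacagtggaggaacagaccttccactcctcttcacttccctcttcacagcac
The ETS letters stood 46 and 17 bases before the Hcst start, 58 before that of Cd247 (opposite strand) and 10 before the upstream Lck start, where the RUNX letters stood 58 bases before it. The downstream Lck start (chr4:129558373-129558622) held the ETS letters 114 bases before it. The windows of Zap70, a gene that also rose, and those of Syk and Sh2d1b1 held none of the 3 motifs. The windows shown were thus picked by motif, and those of Zap70 are not among them. Thus 4 of the 10 windows, from 3 of the 6 genes, held the ETS letters, which 7.69% of all 32851 windows of that length hold; the RUNX letters are in 4.40% and the T-box letters in 3.33%. A match in these letters is a description and not a binding site.

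Sh2d1a encodes SAP, which binds the tails of SLAM receptors and brings in the kinase Fyn (ENSMUSG00000005696, GRCm38 chromosome X, 42502453 to 42529330, plus strand). It had the largest fold change of the 10 genes. The controls held 75.2, 92.0, 117 and 102 normalized counts and the knockouts 304, 324 and 327. The groups were far apart, and the knockouts differed among themselves by less than the controls did. Sh2d1a rose 3.30-fold in mean, from 96.4 ± 17.5 (SD, n = 4) to 318.4 ± 12.4 (SD, n = 3), with a log2 fold change of 1.73 (SE 0.15, limma adjusted p = 0.000460). Its exons overlap those of Tenm1 on the opposite strand, a gene not analysed here.

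Sh2d1b1 encodes EAT-2, the SAP paralog of natural killer cells and other innate cells (ENSMUSG00000102418, GRCm38 chromosome 1, 170277320 to 170286769, plus strand). The controls held 414, 371, 374 and 342 normalized counts and the knockouts 337, 526 and 428. Knockout replicate 1 was the lowest of all 7 libraries and knockout replicate 2 the highest, so the groups overlapped fully. The log2 fold change was 0.18 (SE 0.14, 95% interval -0.15 to 0.50, limma adjusted p = 0.405), and it lay between 0.02 without knockout replicate 2 and 0.34 without knockout replicate 1. Reads can be shared with its near-identical neighbour Sh2d1b2, which was not analysed here.

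Sh2d2a encodes TSAd, an adaptor of T and natural killer cells that binds Lck (ENSMUSG00000028071, GRCm38 chromosome 3, 87846755 to 87855722, plus strand). The controls held 731, 1203, 1199 and 992 normalized counts and the knockouts 2636, 2716 and 2376. All knockouts lay far above all controls, of which replicate 1 was the lowest. Sh2d2a rose from 1031 ± 223 (SD, n = 4) to 2576 ± 178 (SD, n = 3) (log2 fold change 1.35, SE 0.16, limma adjusted p = 0.00145). Without control replicates 1 and 4 the log2 fold change was 1.10 and without control replicates 2 and 3 it was 1.59, both called.

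Zap70 encodes the kinase that docks on phosphorylated ITAMs in T and natural killer cells (ENSMUSG00000026117, GRCm38 chromosome 1, 36761798 to 36782818, plus strand). The controls held 439, 478, 499 and 542 normalized counts and the knockouts 1013, 1084 and 879.9. The knockouts stood apart from the controls, with a mean of 992.2 ± 103 (SD, n = 3) against 489.5 ± 42.9 (SD, n = 4). The log2 fold change was 1.02 (SE 0.10, limma adjusted p = 0.000656).

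Syk encodes the related kinase of myeloid cells and B cells, also present in natural killer cells (ENSMUSG00000021457, GRCm38 chromosome 13, 52583173 to 52648792, plus strand). The controls held 11154, 10726, 8510.0 and 10193 normalized counts and the knockouts 8169.8, 7903 and 9135. Control replicate 3 lay among the knockouts and the other controls lay above them. The log2 fold change was -0.27 (SE 0.11, 95% interval before adjustment -0.51 to -0.02, limma adjusted p = 0.110). Without control replicate 3 Syk was called lower (log2 fold change -0.35, adjusted p = 0.0320).

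Lck encodes the Src family kinase that phosphorylates ITAMs in T and natural killer cells (ENSMUSG00000000409, GRCm38 chromosome 4, 129548344 to 129573641, minus strand). The controls held 1120.2, 1206, 1085 and 1324 normalized counts and the knockouts 1789.7, 2003 and 1575. The knockouts were all above the controls, by less than for Zap70 in fold. Lck rose 1.51-fold in mean (log2 fold change 0.59, SE 0.10, limma adjusted p = 0.00517).

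Ptprcap encodes a transmembrane protein bound to CD45, the phosphatase that activates Lck (ENSMUSG00000045826, GRCm38 chromosome 19, 4153604 to 4156751, plus strand). The controls held 231, 217, 225 and 237 normalized counts and the knockouts 491, 443 and 437. It had the smallest p of the 10 genes and the narrowest controls, at 227.4 ± 8.41 (SD, n = 4). It rose 2.01-fold (log2 fold change 1.00, SE 0.08, limma adjusted p = 0.000454). Its exons overlap those of Coro1b on the same strand and of Rps6kb2 on the opposite strand, so part of its reads can be counted elsewhere or dropped. Coro1b had a log2 fold change of 0.06 (limma adjusted p = 0.576) and Rps6kb2 one of 0.10 (limma adjusted p = 0.539).

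**Figure D2:**
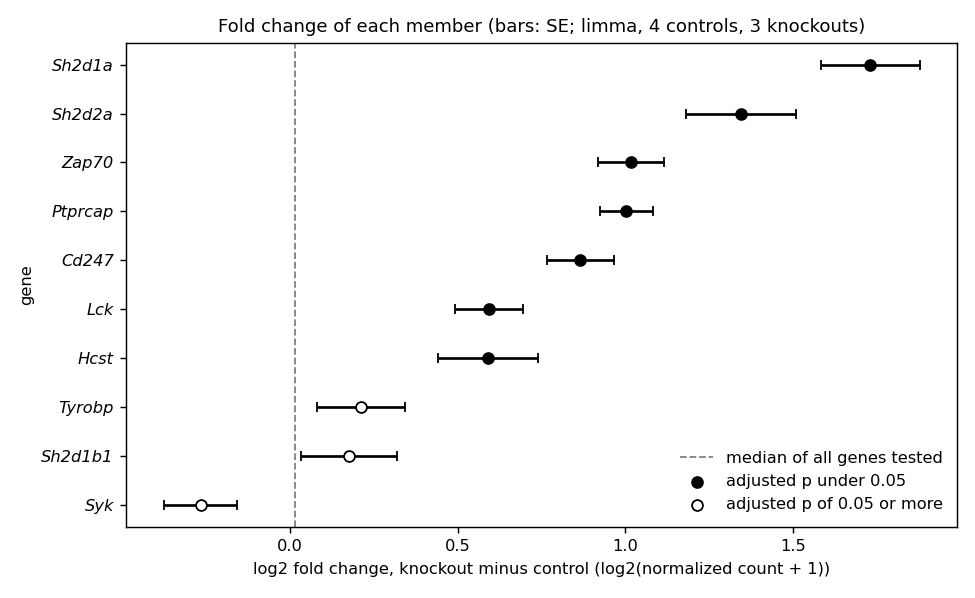
Log2 fold change, knockout minus control, of each gene on the log2(normalized count + 1) scale with its SE, filled where the limma adjusted p was under 0.05; the dashed line is the median of all genes tested. Sh2d1a was highest at 1.73, and the open points are Tyrobp (0.21), Sh2d1b1 (0.18) and Syk (-0.27).

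Without control replicates 1 and 4, the libraries with high Lyz2, 6 of the 10 genes were still called higher. The log2 fold changes were then 1.61 for Sh2d1a, 1.10 for Sh2d2a, 1.01 for Zap70, 1.04 for Ptprcap, 0.89 for Cd247 and 0.64 for Lck. Hcst had a log2 fold change of 0.58 without the call (adjusted p = 0.110). Without control replicates 2 and 3 instead, 6 were again called and Hcst was not (log2 fold change 0.60, adjusted p = 0.102).

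Levels between genes were compared per kilobase of exon, with exon lengths from GENCODE M21, in normalized counts per kb. In controls Tyrobp stood highest at 7314 ± 692 (SD, n = 4), followed by Syk at 1084 ± 124 and Lck at 404.1 ± 36.3. Hcst (183.7 ± 14.8), Sh2d2a (173.6 ± 37.5), Zap70 (163.6 ± 14.3), Sh2d1b1 (147.6 ± 11.6) and Ptprcap (141.1 ± 5.22) came next, each with a range of libraries that overlapped that of its neighbour in the order. Cd247 (87.7 ± 7.81) and Sh2d1a (17.5 ± 3.17) stood lowest, without overlap.

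In knockouts the first 3 and the last 2 places were held by the same genes, and the middle order differed. Below Lck, at 610.8 ± 73.1 (SD, n = 3) per kb, came Sh2d2a with libraries between 400.04 and 457 and Zap70 at 331.6 ± 34.6. Ptprcap (283.7 ± 18.2) and Hcst (281.2 ± 62.0) overlapped each other, and Ptprcap overlapped Zap70. Sh2d1b1 (169.1 ± 37.2) and Cd247 (160.2 ± 17.5) overlapped, and Sh2d1a was lowest at 57.8 ± 2.25. Per kb, Tyrobp thus exceeded every other gene in each library of both groups, and Sh2d1a was below every other.

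**Figure D3:**
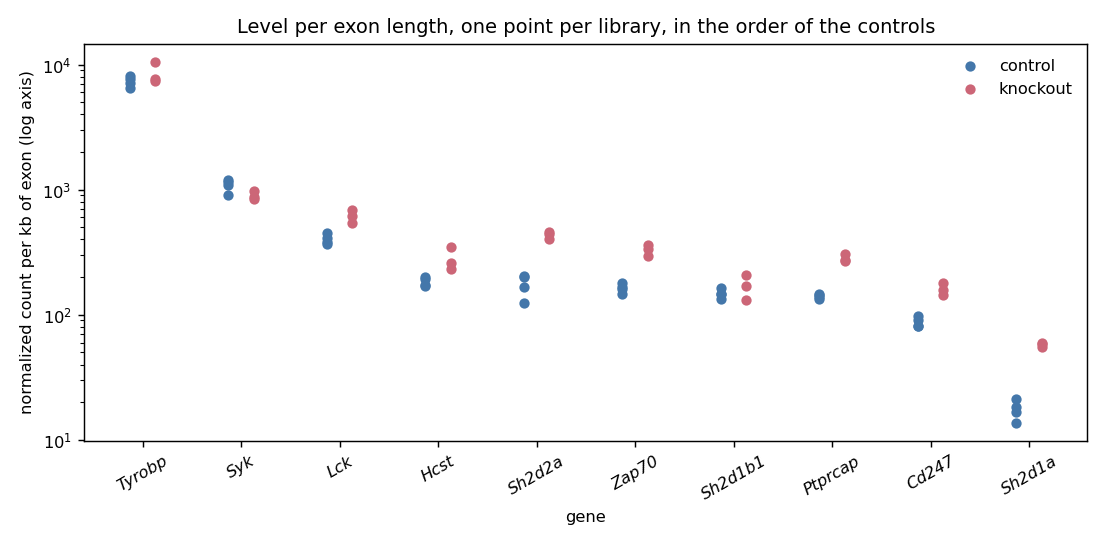
Normalized count per kb of exon (log axis) for each gene, 1 point per library, in the order of the controls. Tyrobp and Syk lie highest in both groups, and the points of the 7 genes that rose lie higher in knockouts than in controls.

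Whether the genes moved by different amounts was tested on 5 ratios within a library. Differences in log2 ratio were put to a 2-sided exact permutation test (35 splits, smallest possible p 0.0286, adjusted over the 5 ratios). All ratios but Lck/Zap70 set a called gene against one not called. They use the same values as the tests of single genes and are not separate support for those calls. Zap70 stood at 3.93, 4.46, 5.87 and 5.31 per 100 normalized counts of Syk in the controls and at 12.4, 13.7 and 9.63 in the knockouts. The log2 ratio was higher in every knockout, by 1.28 (exact permutation p = 0.0286, adjusted 0.0357). Sh2d1b1 stood at 551, 403, 320.5 and 337 per 100 of Sh2d1a in the controls and at 111, 162 and 131 in the knockouts. That log2 ratio was lower in every knockout (difference -1.56, exact permutation p = 0.0286, adjusted 0.0357).

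Lck and Zap70 both rose, and Zap70 by more. Lck stood at 255, 252, 217 and 244 per 100 of Zap70 in the controls and at 177, 185 and 179 in the knockouts, without overlap (log2 difference -0.42, exact permutation p = 0.0286, adjusted 0.0357). Hcst stood at 2.30, 2.86, 3.04 and 2.74 per 100 of Tyrobp in the controls and at 3.62, 3.65 and 3.40 in the knockouts, again without overlap (log2 difference 0.38, exact permutation p = 0.0286, adjusted 0.0357). For Cd247 against Tyrobp knockout replicate 1 lay within the controls (log2 difference 0.66, exact permutation p = 0.0571, adjusted 0.0571), so this difference did not pass.

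**Figure D4:**
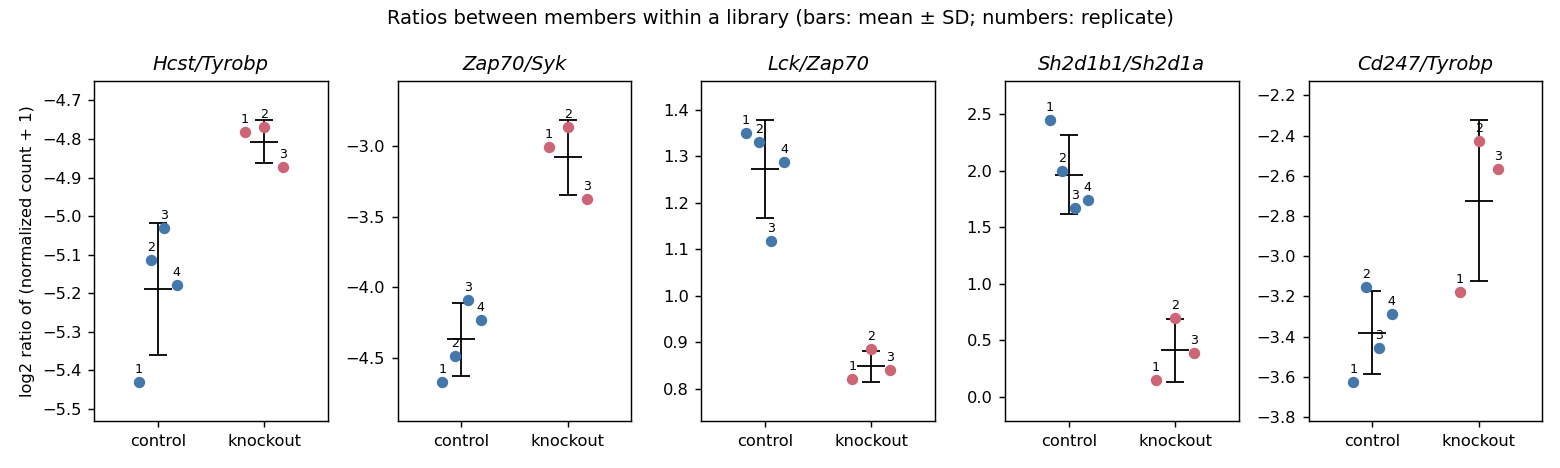
Log2 ratio of (normalized count + 1) between pairs of genes within each library, 1 point per library with its replicate number, bars giving mean ± SD; each panel has its own axis, which does not start at 0. The groups do not overlap for the first 4 ratios and overlap for Cd247/Tyrobp.

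None of the other ITAM chains passed the test, which 21.7% of all genes tested passed in either direction. Of 6 tested, Cd3e, Cd3d and Cd3g of the T cell receptor, Cd79a and Cd79b of the B cell receptor and Fcer1g of Fc receptors, 0 were called by limma, edgeR, DESeq2 or limma-voom, and 0 had an unadjusted p under 0.05 (median log2 fold change -0.12, from -0.22 for Cd3g to 0.16 for Cd79a). Without knockout replicate 2, 1 of them was called lower. Fcer1g stood at 8706 ± 858 (SD, n = 4) and 9266 ± 1109 (SD, n = 3) normalized counts. Cd3e, the epsilon chain, held 521, 526, 506 and 576 in the controls and 414, 643 and 399 in the knockouts, so the knockouts lay on both sides of the controls.

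Cd247 stood at 83.6 to 91.8 per 100 normalized counts of Cd3e in the controls and at 148 to 209 in the knockouts. Zap70 stood at 84.2 to 98.6 and 168 to 245 per 100 of Cd3e, and Sh2d1a at 14.4 to 23.1 and 50.4 to 81.9. Against Ncr1, the NKp46 receptor of natural killer cells, these shares were lower in knockouts. Cd247 went from 91.9 to 221 per 100 of Ncr1 in the controls to 49.6 to 59.0 in the knockouts, and Sh2d1b1 from 79.7 to 210.3 to 21.6 to 32.5. Sh2d1a, at 20.9 to 38.1 and 19.5 to 20.3 per 100 of Ncr1, moved least of these. Control replicate 1, lowest in Ncr1 at 197 normalized counts, set the top of each of these control ranges. The other controls stood at 91.9 to 121 for Cd247, 79.7 to 84.2 for Sh2d1b1 and 20.9 to 24.9 for Sh2d1a. Shares of this kind were chosen after the values were seen and were not tested.

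Natural killer and T cell markers are given beside these results, where 10.4% of all genes tested were called higher and 11.3% lower. All 10 of 10 natural killer markers were called higher (median log2 fold change 1.87), with a summed level of 8786 to 14137 normalized counts in controls and 42444 to 47214 in knockouts. Of 12 T cell markers 1, the costimulatory receptor Cd28, was called higher (median -0.02), with a summed level of 6039 to 7343 in controls and 5927 to 8742 in knockouts. Of 10 markers of monocytes and recruited macrophages 6 were called lower and 1 higher, with sums of 32777 to 47625 and 20956 to 32308. Of 9 alveolar macrophage markers none was called (53462 to 86151 and 71117 to 116321), and of 3 tested B cell markers none was called. Epithelial markers were higher for 5 of 7, at sums of 135 to 193 and 354 to 735. No marker of these 6 lists was at 0 in all libraries. The part of any cell type in the level of the 10 genes was not tested.

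Receptors that pair with Tyrobp or Hcst went both ways. Of 19 tested, 8 were called higher and 2 lower (median log2 fold change 0.29). Among all genes tested 10.4% were called higher and 11.3% lower. Whether this list or the lists below differ from all genes was not tested. The 8 were 5 natural killer receptors and the myeloid receptors Trem1, Trem3 and Treml4. Of the natural killer receptors Klrc2 lost its call without control replicate 4 or knockout replicate 2 or 3 (limma adjusted p = 0.0524, 0.0581 and 0.0638). The others kept theirs with any single library left out. Klrd1, the CD94 chain, had a log2 fold change of 1.29 (SE 0.12, limma adjusted p = 0.000652), Klra4, the activating Ly49D, one of 2.35 (SE 0.25, limma adjusted p = 0.000876) and Klrk1, the NKG2D partner of Hcst, one of 1.64 (SE 0.20, limma adjusted p = 0.00144). Klrk1 held 876.5, 1521, 1705 and 1364 normalized counts in controls and 4329, 3758 and 4331 in knockouts. Klra genes resemble each other closely, so counting may divide reads among them. Trem3 rose by 1.03 (SE 0.20, limma adjusted p = 0.00955), Treml4 by 0.85 (adjusted p = 0.0455) and Trem1, a receptor of neutrophils and monocytes, by 0.74 (adjusted p = 0.0426). All 3 were highest in knockout replicate 1, the library with most neutrophil transcripts, whose part in them was not tested. Without that library Trem1 and Trem3 were still called, at log2 fold changes of 0.41 and 0.74 (adjusted p = 0.00891 and 0.00425), and Treml4 was not (0.53, adjusted p = 0.0825). The Trem1 call was lost without any one of the 4 controls or knockout replicate 2, and the Treml4 call without any library except knockout replicate 3. Trem2, a lipid receptor of macrophages that signals through Tyrobp, fell by 1.35 on the log2 scale (SE 0.20, limma adjusted p = 0.00299). Cd300c2, a myeloid receptor, fell by 0.62, a call that was lost without knockout replicate 2 (adjusted p = 0.0644). Without control replicates 1 and 4, 7 of the 19 were called higher and 1, Trem2, lower. Trem1, Treml4 and Cd300c2 then lost their calls (limma adjusted p = 0.176, 0.0797 and 0.103), so the 7 include a gene not called with all libraries. Without control replicates 2 and 3 instead, Trem1, Trem3, Treml4 and Cd300c2 lost their calls (limma adjusted p = 0.152, 0.0824, 0.217 and 0.0718). Calls over all genes became fewer under both omissions. Leaving out 1 library at a time, 5 to 7 of the 19 were called higher and 1 to 3 lower, with 5 higher without control replicate 4 or knockout replicate 2.

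Of 9 genes of the SLAM receptor family tested 1 was called higher and 4 lower (median log2 fold change -0.34). All genes tested gave 10.4% higher and 11.3% lower. Without control replicates 1 and 4 the family had 1 higher and 1, Cd84, lower. Without control replicates 2 and 3 instead, Slamf6 lost its call (limma adjusted p = 0.0788), and Cd84, Slamf7 and Slamf8 kept theirs. Most of the family bind SAP or EAT-2 through their tails, but Cd48 has no such tail and Slamf8 and Slamf9 lack the binding motif. Cd244, the 2B4 receptor of natural killer cells, rose by 0.91 (SE 0.19, limma adjusted p = 0.0125), where controls stood at 352.5 ± 88.0 (SD, n = 4) normalized counts and knockouts at 646.7 ± 32.4 (SD, n = 3). Cd84, a SLAM receptor of myeloid cells and lymphocytes, fell by 0.65 (SE 0.08, limma adjusted p = 0.00168), with 3657 to 4342 in controls and 2433 to 2617 in knockouts. Slamf7 fell by 0.70, a call lost without knockout replicate 2 (adjusted p = 0.0538). Slamf6 fell by 0.45, and its call was lost without any one of control replicates 1, 2 and 4 and knockout replicates 1 and 2 (adjusted p up to 0.0903). Slamf8 fell by 0.54 with overlapping groups (limma adjusted p = 0.0440), a call lost without any library except control replicate 3 or knockout replicate 3. The number called lower was 1 without knockout replicate 2 and 2 without knockout replicate 1 or control replicate 1, 2 or 4. Cd48, the ligand of Cd244, had a log2 fold change of 0.07.

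Of 13 Src family kinases and their regulators 2 were called higher and 2 lower (median log2 fold change 0.11). Those shares were 10.4% and 11.3% over all genes tested. Fyn, the kinase that SAP recruits, rose by 0.77 (SE 0.08, limma adjusted p = 0.000987), where controls stood at 1433 ± 135 (SD, n = 4) normalized counts and knockouts at 2431 ± 78.6 (SD, n = 3). Ptpn22, a phosphatase that acts on Lck and Zap70, rose by 0.81 (SE 0.16, limma adjusted p = 0.00878). Src fell by 1.12 (SE 0.25, limma adjusted p = 0.0147), a call lost without control replicates 1 and 4 together (log2 fold change -0.81, adjusted p = 0.0753), where 0 of the 13 were called lower. Src kept its call without control replicates 2 and 3 together (-1.43, adjusted p = 0.0204). Blk, a kinase of B cells, fell by 0.79 (limma adjusted p = 0.0437), and its call was lost without any library except control replicate 3 (adjusted p up to 0.127). The number called lower was then 1, except without knockout replicate 1, where it was 2 with another gene in place of Blk. The myeloid kinases Lyn and Fgr had log2 fold changes of 0.18 and 0.16 and were not called.

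Downstream of the kinases 7 of 31 adaptors and enzymes were called higher and 2 lower (median log2 fold change 0.04). Over all genes tested it was 10.4% and 11.3%. Skap1, an adaptor of lymphocyte adhesion, rose by 0.82 (SE 0.09, limma adjusted p = 0.000987), Prkcq, a protein kinase C of T cells, by 0.79 (SE 0.09, limma adjusted p = 0.00132), and Txk, a Tec family kinase of T and natural killer cells, by 1.19 (SE 0.18, limma adjusted p = 0.00314). Lat, the adaptor that Zap70 phosphorylates, stood at 394.5 ± 30.7 (SD, n = 4) and 402.3 ± 130 (SD, n = 3) normalized counts and was not called. Blnk, an adaptor that Syk phosphorylates, fell by 1.05, a call lost without control replicate 1 or 4 or knockout replicate 1 or 2 (adjusted p up to 0.0700). Lat2 fell by 0.37, a call lost without any library except knockout replicate 1 (adjusted p up to 0.138). The number called lower was 5 without knockout replicate 1, 0 without control replicate 1 or 4 and 1 without any other library. It was also 0 without control replicates 1 and 4 together, where 5 were called higher. Without control replicates 2 and 3 together Lat2 lost its call (limma adjusted p = 0.145) and Blnk kept its own (0.0268).

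Of 13 inhibitors of this signalling 2 were called higher and 1 lower (median log2 fold change 0.18), beside 10.4% and 11.3% of all genes tested. Dok2, an adaptor that dampens tyrosine kinase signals, rose by 0.68 (SE 0.06, limma adjusted p = 0.000652) and Sla2, which lowers receptor levels in lymphocytes, by 1.04 (SE 0.12, limma adjusted p = 0.00114). Cbl, a ubiquitin ligase that targets Syk and Zap70, fell by 0.51 (SE 0.10, limma adjusted p = 0.00906). The Cbl call was lost without control replicates 1 and 4 together (log2 fold change -0.55, adjusted p = 0.0509) and without control replicates 2 and 3 together (-0.47, adjusted p = 0.0692). The number called lower was 2 without knockout replicate 1 and 0 without control replicates 1 and 4.

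**Figure D5:**
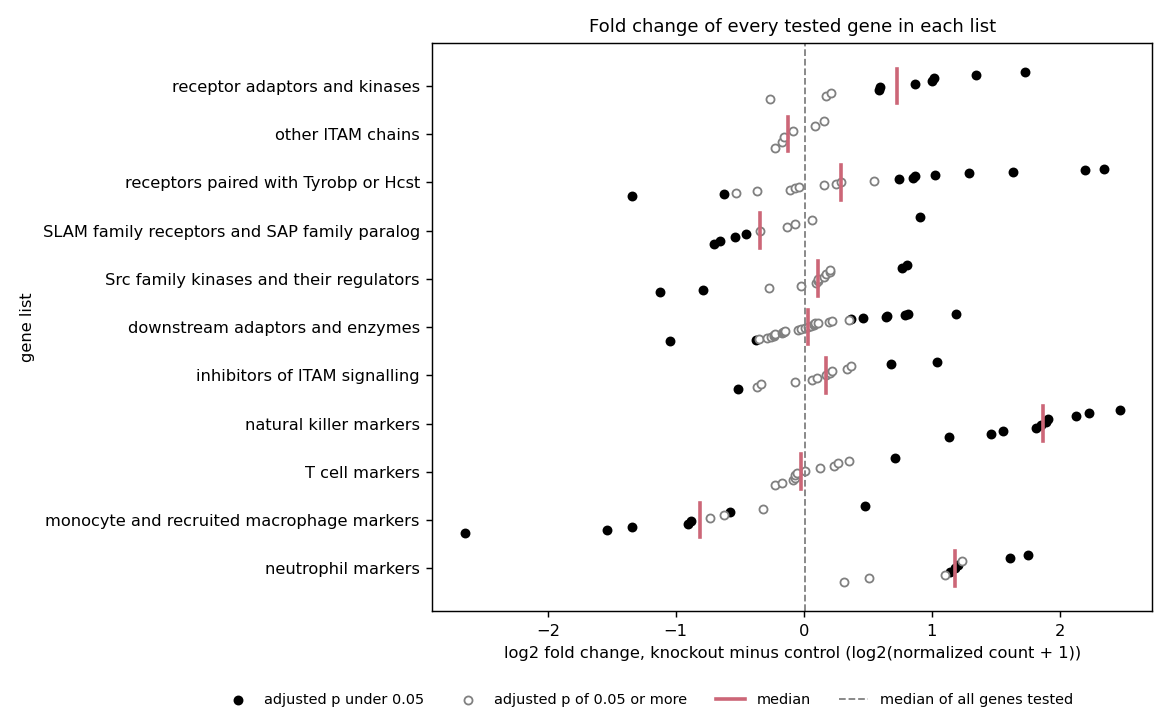
Log2 fold change, knockout minus control, of every tested gene in the 10 adaptors and kinases, the 6 lists of related genes and 4 lists of cell type markers, filled where the limma adjusted p was under 0.05, with the median of each list in red and that of all genes tested dashed. The 10 genes have a median of 0.73. The marker medians are 1.87 for natural killer cells, -0.02 for T cells, -0.81 for monocytes and recruited macrophages and 1.18 for neutrophils.

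Genes with the most similar profile were found by the root mean square difference of centred log2 values over the 7 libraries, which share their grouping. Zap70 and Ptprcap were closest to each other among the 10 (0.11), followed by Cd247 and Zap70 (0.13). Outside the 10 genes, Zap70 was nearest to Sept1 and Gimap6 (0.07 each) and Ptprcap to Tnfsf4 (0.08) and Sept1 (0.09). Cd247 was nearest to Ppp1r16b (0.05) and Mctp2 (0.07), Lck to Cnp (0.07) and F2r (0.08), and Sh2d2a to Camk2n1 (0.05) and Pear1 (0.09). Sh2d1a, nearest to Car2 (0.13) and Spry2 (0.14), had no gene as close as the others had. Hcst was nearest to Epsti1 (0.05) and Lsp1 (0.06), Tyrobp to Rhog and Nadk (0.05 each), Sh2d1b1 to Akr1b3 (0.05) and Mpp7 (0.06), and Syk to Arl8a (0.04) and Taf3 (0.05).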

How the data were processed

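The authors deposited 1 table whose signal columns hold, for each of 7 libraries, read counts divided by a size factor (normalized counts); the tools were STAR 2.5.3a, cutadapt 1.15, DESeq2 and HTSeq, with GRCm38 (mm10), per the submitters' processing notes. Which annotation and strand setting were used is not given in these sources. Per the file headers, the table also holds the authors' p-values, log2 fold change and its error, and a score (the test statistic). Every value was a whole multiple of 1 step per library (100% within 0.01), and whole reads were recovered from it; edgeR 4.0.16 on these reads called 1365 genes higher and 1497 lower, beside 1352 and 1461 by limma.

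limma 3.58.1 in R 4.3.3 (eBayes with trend) was fitted to log2(normalized count + 1) for 12963 genes with a mean of at least 10, Benjamini-Hochberg adjusted; such fold changes understate the change of low genes. Single ratios and Ntn1 were tested by exact permutation. The fit was tested on simulated data. Named genes were the 10, Ntn1, up to 3 called genes with the smallest p per direction of each list and the 2 nearest in profile. Lyz2, Ptprc, Lat, Cd48, Lyn, Fgr, Ncr1, Klrc2, Trem1, Trem3, Treml4, Slamf8, Slamf9, the ITAM chains and overlapping genes were named after their values were seen. So were S100a8 and S100a9. The genes and lists were chosen with earlier results of these data known. Positions came from GENCODE M21 on GRCm38. Other listed symbols absent from the table were not analysed here. Alternatives were other scalings, pseudocounts, filters, edgeR, DESeq2 1.42.0, limma-voom, the replicate number as a block and libraries left out.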

Additional observations from a re-analysis of the deposited data

How the results depend on the processing

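Under 20 alternatives each, the 10 genes gave 200 values, of which 190 kept their side of the threshold, 9 lost it (8 for Hcst and 1 for Lck), 1 gained it (Syk) and 0 changed direction. The number of the 10 called higher was 6 or 7 and the number called lower 0 or 1 with single libraries left out. Over all genes, single libraries left out gave 695 to 1172 higher and 820 to 1303 lower. Leaving out control replicates 1 and 4 gave 624 higher and 567 lower, and control replicates 2 and 3 gave 622 and 620. Over the 6 lists of related genes 20 of 91 tested were called higher and 11 lower, beside 10.4% and 11.3% of all genes tested. Single libraries left out gave 6 to 14 lower, and leaving out control replicates 1 and 4 gave 2. With the title number as a replicate block 424 genes were higher and 382 lower, and 2 related genes were lower; with the number of the description as the block it was 591, 605 and 3, and Lck lost its call (limma adjusted p = 0.0563). Hcst lost its call under both. Deviations of same-numbered libraries correlated at -0.23, -0.03 and -0.19 by title and -0.08, -0.29 and 0.08 by description. Those of differently numbered libraries correlated at -0.29 to 0.35 by title. So few values cannot tell whether the numbers pair the libraries. With single libraries left out the log2 ratio differences were 0.30 to 0.43 for Hcst/Tyrobp, 1.17 to 1.43 for Zap70/Syk, -0.47 to -0.40 for Lck/Zap70, -1.70 to -1.39 for Sh2d1b1/Sh2d1a and 0.51 to 0.88 for Cd247/Tyrobp. Without control replicates 1 and 4 they were 0.27, 1.20, -0.38 and -1.43 for the first 4, and without control replicates 2 and 3 they were 0.50, 1.36, -0.47 and -1.68. Fewer libraries cannot reach the threshold in the permutation test, so these losses say nothing about stability. Counting error limits Sh2d1a and Hcst most, which had the fewest reads.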
